A study of Mus musculus with 18 samples.

Results

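The cytosolic ribosomal protein genes encode the proteins of the ribosome outside mitochondria. Genes were taken by symbol, as Rps or Rpl with a number or as Rplp0, Rplp1, Rplp2 and Rpsa, without the Rps6 kinases. This gave 61 of the 19057 genes with a probe of their own on the array, 24 of the small and 37 of the large subunit. The probe with the highest mean in the authors' log2 table stood for each gene. Of the 61 genes 55 were tested, 22 of the small and 33 of the large subunit. The other 6 were above the detection limit of an array (set by probes for olfactory and vomeronasal receptors) on fewer than 3 arrays. Rpl17, Rpl3l, Rpl6 and Rpsa were above it on 0 arrays, Rps23 on 1 and Rpl39l on 2. No probe for Rps27a, Rpl5, Rpl7, Rpl10, Rpl11 or Rps27 was analysed here.

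Total RNA was measured on 18 Illumina bead arrays of mast cells from female mice, wild type or knockout for Dnmt3a, an enzyme that sets DNA methylation. The cells were untreated or had received IgE and antigen, which crosslink the high-affinity IgE receptor, for 4 h or 24 h. Each of the 6 groups had 3 arrays, and all are labelled with 5 weeks, of which the labels do not say whether it is an age or a time in culture. Wild-type cultures are numbered 6, 8 and 9 and knockout cultures 3, 4 and 6, and each number gave 1 array per condition. The labels do not say whether a number is 1 mouse, nor how the knockout was driven. The arrays came on 3 slides, with wild-type 6 beside knockout 3 on slide 1, wild-type 8 beside knockout 4 on slide 2 and wild-type 9 beside knockout 6 on slide 3, so a slide and its pair of cultures cannot be told apart.

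The 12 mast cell markers examined, among them Kit, Fcer1a and Cpa3, were all measured. Of 92 markers of other cell types 22 were, with 4 of 5 for basophils, 2 of 12 for macrophages, 1 of 10 for neutrophils, 0 of 7 for eosinophils and 4 of 9 for erythroid cells. The counts were 3 of 8 for megakaryocytes, 1 of 10 for T and NK cells, 0 of 7 for B cells, 2 of 9 for dendritic cells, 1 of 8 for fibroblasts and 4 of 7 for progenitors. Their mean log2 intensity lay between 7.91 and 8.33 on every array, and that of the mast cell markers between 12.35 and 13.10. Over both genotypes at 4 h (limma without a block, where 15.3% of all genes passed) Hdc (1.76) and Zap70 (0.71) rose and Kit (−0.82), Gata2 (−0.38), Cd200r3 (−0.63), Vwf (−0.87) and Meis1 (−0.56) fell in log2 units. At 24 h (8.04% of all genes) Mcpt4 (2.64), Mcpt8 (2.04) and Klf1 (0.69) rose and Kit (−0.89), Cd200r3 (−0.80) and Itga2b (−0.70) fell. Between genotypes, on culture means, 0 markers passed without a block (0.1% of all genes). With the slide as a block (0.657%) 1 dendritic marker was higher and 1 megakaryocyte marker lower in knockout cells. The median knockout minus wild-type difference was 0.60 for the 2 macrophage and 0.45 for the 2 dendritic markers. It was −0.21 for the 3 megakaryocyte and −0.09 for the 12 mast cell markers. The part of these changes and differences in the results on ribosomal protein genes was not tested. The 3 probes of Dnmt3a were above the detection limit on 0 arrays of either genotype, so the knockout could not be checked from its transcript. Between 28.7% and 33.8% of an array's probes were above its limit, and 8985 genes were tested. The number of arrays limits the precision.

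A ribosome holds 1 copy of most of these proteins, and cells make them in matched amounts. In mammals their mRNAs begin with a C followed by a run of pyrimidines, the 5′ terminal oligopyrimidine (TOP) tract. Through this tract mTORC1 and the RNA-binding protein Larp1 control how much of the mRNA is translated, which a measurement of mRNA level does not read. Stimulated mast cells synthesise cytokines and refill their granules, both of which draw on ribosomes. Total RNA is mostly ribosomal RNA, and fewer cells and less RNA per cell cannot be told apart in such samples.

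RefSeq transcript starts of build GRCm38.p6 were matched by Entrez gene ID for 51 of the 61 genes. A C followed by at least 4 pyrimidines lay exactly at a start of 9 of the 51 (17.6%) and of 3.01% of all 27025 genes in the table. Beginning within 5 bases of the start, it was found in 24 (47.1%) and in 21.2% of all genes. The letters CCGGAAG, as bound by ETS factors such as Gabpa, stood in the 300 bases around a start (250 before, 50 after, either strand) in 23 (45.1%) and in 9.93% of all genes. TATAAA stood there in 6 (11.8%) and in 15.7% of all genes. AAGATGGC, the core of a Yy1 motif, stood there in 4 (7.84%) and in 3.19% of all genes. These are matches of letters and not sites of binding, and an annotated start can lie some bases from the one a cell uses. The 30 bases centred on the annotated start are printed for genes whose array values are described below. Rps6, Rpl38 and Rpl14, each with a C and at least 4 pyrimidines from the start, come first. The marked runs of Rps6 and Rpl14 begin before the start. The first 15 bases precede the start, and capitals mark the C and pyrimidine run nearest to it where 5 or more letters lie in the window.
Rps6, chr4:86857353-86857382, minus strand: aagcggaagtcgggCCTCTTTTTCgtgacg
Rpl38, chr11:114668565-114668594, plus strand: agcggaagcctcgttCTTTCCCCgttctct
Rpl14, chr9:120571502-120571531, plus strand: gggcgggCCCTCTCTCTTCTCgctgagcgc
Rpl13a, chr7:45128731-45128760, minus strand: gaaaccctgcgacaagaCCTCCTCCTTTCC
Rpl22l1, chr3:28805493-28805522, plus strand: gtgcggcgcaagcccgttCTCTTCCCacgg
Rps27l, chr9:66946071-66946100, plus strand: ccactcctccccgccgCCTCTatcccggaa
Rplp0, chr5:115559452-115559481, plus strand: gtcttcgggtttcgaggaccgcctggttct
Rpl7l1, chr17:46782642-46782671, minus strand: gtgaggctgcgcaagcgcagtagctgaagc
Among these windows those of Rplp0 and Rpl7l1 held no such run, and those of Rps27l (1 of its 2 annotated starts), Rpl13a and Rpl22l1 began at transcribed base 2, 3 and 4.

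Most ribosomal protein genes were among the brightest on the arrays and varied little. The mean log2 intensity over 18 arrays ran from 6.52 for Rps20 (above the detection limit on 3 of the 18 arrays) to 14.58 for Rplp1, with 36 of the 55 genes above 13, where the arrays end at 14.76. The median standard deviation within groups was 0.14 log2 units, against 0.26 over all genes. All 126 genes with means above 13, the 36 included, had a median of 0.17, and the 36 alone a median of 0.12. Over the 18 arrays the median of Pearson's r over their 1485 pairs was 0.19, a description of points that share arrays and slides. A few stood out by their spread over the 18 arrays. Rpl22l1 spanned 2.29 log2 units, Rpl13a 2.02, Rpl22 1.67, Rps27l 1.48 and Rplp0 1.31, whereas Rpl27 spanned 0.35 and Rpl3, which lies near the catalytic centre, 0.32.

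**Figure D1:**
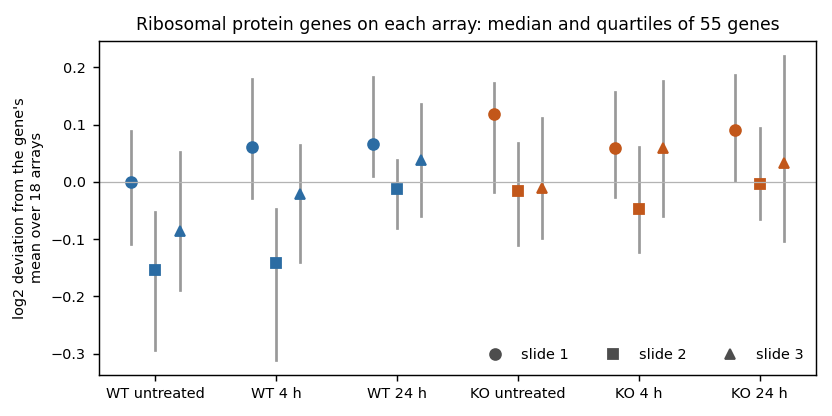
Median over 55 ribosomal protein genes (symbol) and quartiles (grey line) of the log2 deviation from each gene's mean over 18 arrays, 1 symbol per array, by group, with the symbol's shape giving the slide. The medians lie between −0.15 and 0.12, and the slide 2 array is the lowest of its group in all 6 groups.

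After 4 h of IgE and antigen no ribosomal protein gene passed the threshold in the fit without a block (limma, adjusted p 0.05), in either genotype or over both. The count was 0 of 55 in wild-type cells, where 1.83% of all 8985 genes passed, and 3 had an unadjusted p under 0.05. It was 0 of 55 in knockout cells, where 0.812% of all genes passed, and 0 had such a p. Averaged over both genotypes it was 0 of 55 against 15.3% of all genes, with 4 unadjusted. The median log2 change over both genotypes was 0.03, with quartiles of −0.05 and 0.09, and over all genes it was −0.03. The 95% interval of the change lay within 0.5 log2 units of 0 for 47 of the 55 genes and within 1 for 54. In all 6 cultures 5 genes were higher at 4 h (9.09% of the 55) and 3 lower (5.45%), and over all genes 12.6% were higher and 16.6% lower in all 6.

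With the slide as a block arrays were compared within a slide. Over both genotypes 4 of the 55 genes then rose at 4 h and 0 fell. Among all genes 27.7% passed, and 12.7% of all genes rose. A block for the culture gave 4 rises as well, against 26.3% of all genes. The share of ribosomal protein genes past the threshold, 7.27%, was below that of all genes in both fits. The 4 genes were Rplp0, Rpl13a, Rpl14 and Rpl7l1. With the culture as a random block (limma with an estimated correlation) 3 rose, against 26.7% of all genes, and Rpl13a did not pass.

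Rplp0, the base of the ribosomal stalk on which elongation factors bind, had log2 intensities of 8.78, 8.37 and 8.72 in untreated wild-type cultures 6, 8 and 9, of 9.37, 8.99 and 8.98 at 4 h and of 9.00, 8.40 and 8.91 at 24 h. In knockout cultures 3, 4 and 6 it had 8.87, 8.79 and 9.13 untreated, 9.44, 8.99 and 9.69 at 4 h and 9.14, 8.51 and 9.07 at 24 h. Every culture was higher at 4 h than untreated, and in wild-type cells the 4 h and untreated values did not overlap. The log2 change at 4 h was 0.47 ± 0.16 (SE, limma adjusted p = 0.0574 without a block, 0.00492 with the slide and 0.00613 with the culture as a block and 0.0109 with it as a random block), and at 24 h it was 0.06 ± 0.16 (adjusted p = 0.839). In wild-type cells alone the 4 h change of 0.49 ± 0.22 passed only with a fixed block (slide, adjusted p = 0.0445, 9.78% of all genes; culture, adjusted p = 0.0468, 8.59%), and not with the culture as a random block (limma adjusted p = 0.0776, 9.16%). A fit without the array of wild-type culture 9 at 4 h was added after seeing the data. It gave a change of 0.50 over both genotypes, which passed without a block (limma adjusted p = 0.0465), where 22.4% of all genes passed. The second kept probe of Rplp0 gave 0.19 ± 0.19 at 4 h and did not pass with the slide as a block (limma adjusted p = 0.121). The stalk proteins that pair on Rplp0 gave values near 0. Rplp1 changed by −0.10 ± 0.09 at 4 h and −0.15 ± 0.09 at 24 h, and Rplp2 by −0.02 ± 0.09 and −0.03 ± 0.09, none past the threshold with or without a block.

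Rpl13a, a large subunit protein that in human monocytes also takes part in translational silencing outside the ribosome, was the gene with the most calls. Its log2 intensity in wild-type cultures 6, 8 and 9 was 10.01, 8.90 and 9.65 untreated, 10.67, 9.34 and 9.67 at 4 h and 10.67, 9.96 and 10.56 at 24 h. In knockout cultures 3, 4 and 6 it was 10.27, 9.71 and 9.99 untreated, 10.93, 10.05 and 10.55 at 4 h and 10.76, 10.13 and 10.46 at 24 h. The cultures on slide 2 were the lowest of their genotype in every condition, and the groups overlapped, but each culture was higher at both times than untreated, by as little as 0.02 (wild-type culture 9 at 4 h) and as much as 1.06 (wild-type culture 8 at 24 h). Over both genotypes the log2 change was 0.45 ± 0.25 at 4 h (limma adjusted p = 0.231, with the slide as a block 0.0106) and 0.67 ± 0.25 at 24 h (0.0984 and 0.0018). In wild-type cells it was 0.88 ± 0.35 at 24 h against untreated (limma adjusted p = 0.231, with the slide as a block 0.0098, where 5.24% of all genes passed, and with the culture 0.0135 and 4.66%), and 0.51 ± 0.35 at 24 h against 4 h (0.387 and 0.0393). With the culture as a random block Rpl13a passed over both genotypes at 24 h (limma adjusted p = 0.0166) and not at 4 h (0.0715). In wild-type cells it then did not pass at 24 h against untreated (0.0542, where 4.64% of all genes passed) or against 4 h (0.167, 17.3%).

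Rpl14, also of the large subunit, was measured close to the detection limit, above it on 16 of 18 arrays. Its 6 untreated log2 intensities ran from 6.68 to 7.08, the 6 at 4 h from 6.95 to 7.67 and the 6 at 24 h from 6.87 to 7.54, so that conditions overlapped while every culture was above its own untreated array at both times. The change was 0.36 ± 0.16 at 4 h (limma adjusted p = 0.129, with the slide as a block 0.0187) and 0.44 ± 0.16 at 24 h (0.0891 and 0.00974), and with the culture as a random block it passed at both times (0.0395 and 0.0209). Rpl7l1, the paralogue of Rpl7 that is linked to the making of the large subunit, changed by 0.29 ± 0.10 at 4 h (0.0719 and 0.0207, with the random block 0.0191) and by 0.22 ± 0.10 at 24 h (0.191 and 0.0727). Its second kept probe gave 0.14 ± 0.15 and −0.16 ± 0.15, neither past the threshold with or without the slide as a block. By the chosen probe it was higher in all 6 cultures at both times, by 0.04 in knockout culture 6 and by 0.45 in wild-type culture 8 at 4 h.

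**Figure D2:**
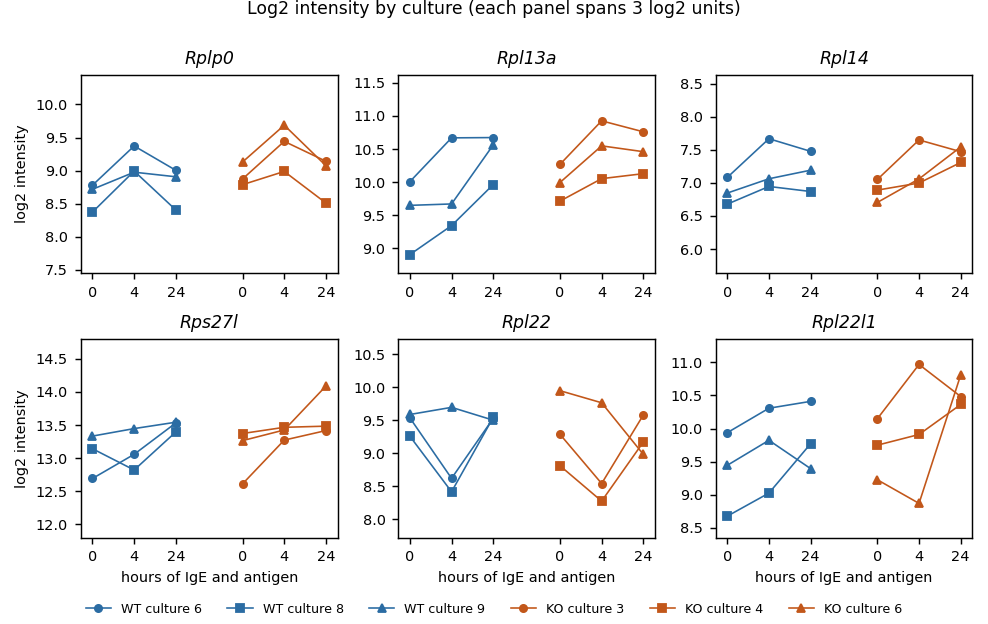
Log2 intensity (y axis, 3 log2 units in every panel) of 6 ribosomal protein genes at 0, 4 and 24 h of IgE and antigen, 1 line per culture, wild type on the left (blue) and knockout on the right (orange), with circles, squares and triangles for slides 1, 2 and 3. Rplp0 peaks at 4 h in all 6 cultures, and Rpl22 is lower at 4 h by 0.54 to 0.92 in 4 cultures, by 0.18 in knockout culture 6, and higher by 0.11 in wild-type culture 9.

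At 24 h the counts without a block were 0 of 55 in wild-type cells (0.69% of all genes, 6 unadjusted), 0 of 55 in knockout cells (0.245%, 3 unadjusted) and 0 of 55 over both (8.04%, 9 unadjusted). The median change over both genotypes was 0.05, against −0.01 over all genes, with intervals within 0.5 log2 units of 0 for 48 genes and within 1 for 53. With the slide as a block 5 genes rose and 0 fell, where 20.2% of all genes passed and 9.53% of all genes rose. With the culture as a block 4 rose (19.4% of all genes), and with it as a random block 4 (18.9%). Besides Rpl13a and Rpl14 these were Rps27l, Rpl21 and Rpl28, the last only with the slide.

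Rps27l, a paralogue of Rps27 that p53 induces, had log2 intensities of 12.69, 13.14 and 13.33 in untreated wild-type cultures 6, 8 and 9 and of 13.53, 13.40 and 13.54 at 24 h. In knockout cultures 3, 4 and 6 it went from 12.61, 13.37 and 13.26 untreated to 13.42, 13.48 and 14.09 at 24 h. In wild-type cells the 24 h values were above all untreated ones. The 24 h changes of single cultures fell apart, with 0.81 to 0.84 in wild-type culture 6 and in knockout cultures 3 and 6 and 0.11 to 0.25 in the others, and the mean was 0.51 ± 0.17 (limma adjusted p = 0.067, with the slide as a block 0.015, with the culture as a random block 0.0186). Rpl21, another large subunit protein, had 24 h values of 7.06 to 7.38 that all lay above its 6 untreated values, of which the lowest was 6.82. It was above the detection limit on 18 arrays but close to it, with an intensity of 146.8 against a limit of 141.0 in untreated wild-type culture 8. Rpl21 changed by 0.27 ± 0.09 (limma adjusted p = 0.0683, with the slide as a block 0.0244, with the culture as a random block 0.0227). The second kept probe of Rpl21 was above the detection limit on 3 of 18 arrays, and its change is not given. Rpl28 changed by 0.25 ± 0.11 (0.188 and 0.0427, and 0.0625 with the culture as a block and 0.0704 as a random block). In knockout cells alone Rpl14 passed with the slide as a block (0.56 ± 0.22, limma adjusted p = 0.0447, 3.86% of all genes) and 0 genes with the culture as a block (3.08%) or as a random block (Rpl14, limma adjusted p = 0.0799, 3.44%). At 4 h in knockout cells 0 passed with either (5.59% and 4.7%).

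**Figure D3:**
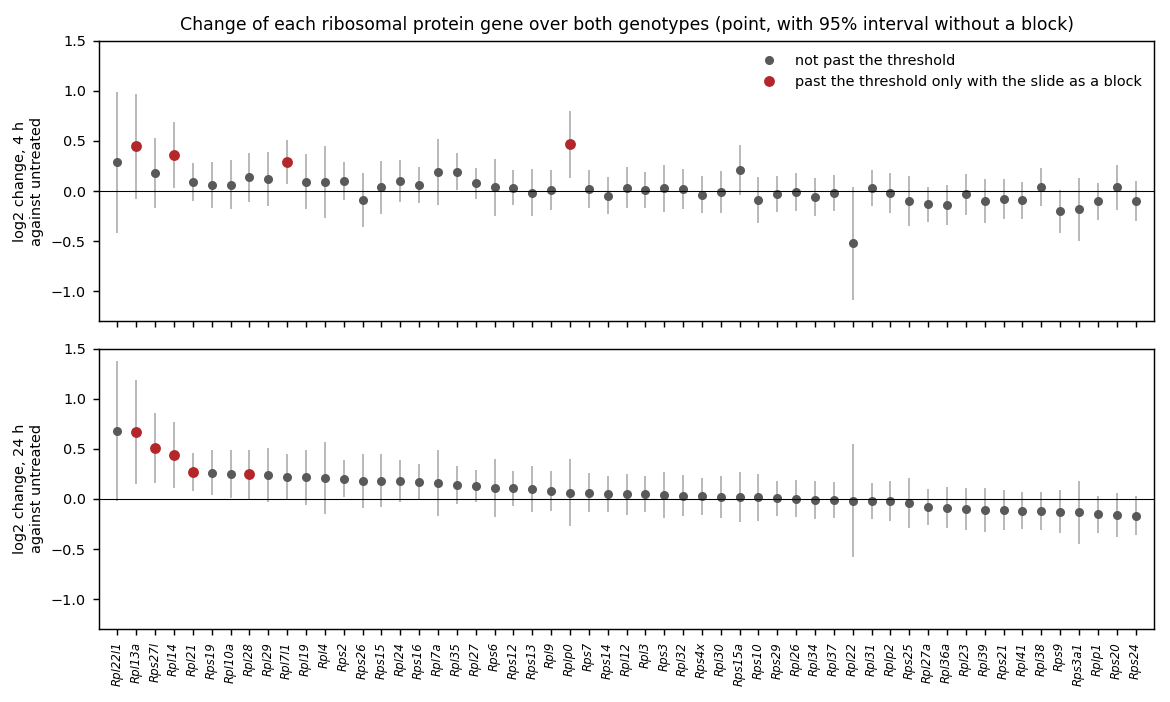
Log2 change of each of the 55 genes at 4 h (top) and 24 h (bottom) over both genotypes (y axis), with the 95% interval of the fit without a block, in the order of the 24 h change. Red marks the 4 and 5 genes past the threshold with the slide as a block, and 0 passed without a block. Rps20 was above the detection limit on 0 arrays at 24 h and on 0 knockout arrays at 4 h, so neither of its points is a measured change.

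Rps6, the ribosomal protein that S6 kinases phosphorylate, changed by 0.04 ± 0.14 at 4 h and 0.11 ± 0.14 at 24 h (limma adjusted p = 0.88 and 0.645), with a 95% interval of −0.18 to 0.40 at 24 h. Rps19, mutated in human Diamond-Blackfan anaemia, changed by 0.06 ± 0.11 and 0.26 ± 0.11 (0.726 and 0.139). Rpl3 changed by 0.01 ± 0.09 and 0.05 ± 0.09 (0.953 and 0.778), and its muscle-type paralogue Rpl3l was not above the limit. Rpl39 changed by −0.10 ± 0.10 and −0.11 ± 0.10 (0.542 and 0.552), and its paralogue Rpl39l was above the limit on 2 arrays.

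Rpl22 and Rpl22l1 are paralogues, and in mice Rpl22 protein holds Rpl22l1 expression down. Rpl22 had log2 intensities of 9.53, 9.26 and 9.59 in untreated wild-type cultures 6, 8 and 9 and of 8.62, 8.42 and 9.69 at 4 h. In knockout cultures 3, 4 and 6 it went from 9.29, 8.81 and 9.95 to 8.54, 8.27 and 9.76. At 24 h it had 9.53, 9.54 and 9.50 in wild-type and 9.58, 9.17 and 8.98 in knockout cultures. The 4 cultures on slides 1 and 2 were lower by 0.54 to 0.92 at 4 h, and those on slide 3 differed by 0.11 (wild-type culture 9) and −0.18 (knockout culture 6). The mean change of −0.52 ± 0.27 was the lowest of the 55 at 4 h and did not pass (limma adjusted p = 0.197, with the slide as a block 0.0825). In the fit without the array of wild-type culture 9 at 4 h, added after seeing the data, the change passed (−0.71, limma adjusted p = 0.0492). There 2 of the 55 genes and 22.4% of all genes passed. The array left out held the only rise of Rpl22 at 4 h, so that a larger fall followed from leaving it out. At 24 h the change was −0.02 ± 0.27. Rpl22l1 changed by 0.29 ± 0.33 at 4 h and 0.68 ± 0.33 at 24 h (limma adjusted p = 0.591 and 0.212, with the slide as a block 0.411 and 0.0674). Its 24 h change was positive in 5 of 6 cultures, from 0.34 to 1.59, and −0.05 in wild-type culture 9.

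The lowest other changes over both genotypes were those of Rps9 (−0.20 ± 0.10) and Rps3a1 (−0.18 ± 0.15) at 4 h and of Rps24 (−0.17 ± 0.09) and Rplp1 at 24 h, none past the threshold. Rps20 was among the lowest at 24 h and in 4 of the comparisons below, but in each of them at least 1 group was below the detection limit on all its arrays, so no value is given for it. In wild-type cells the extremes at 4 h were Rplp0, Rpl13a (0.37) and Rpl22l1 (0.37) upward and Rpl22 (−0.55), Rps9 (−0.31) and Rps10 (−0.19) downward. At 24 h they were Rpl13a, Rpl22l1 (0.51) and Rps27l (0.43) upward and Rps24 (−0.21), Rplp2 (−0.18) and Rpl38 (−0.16) downward. In knockout cells the extremes at 4 h were Rpl13a (0.52), Rplp0 (0.44) and Rpl14 (0.35) and, downward, Rpl22 (−0.49), Rps3a1 (−0.20) and Rpl36a (−0.20). At 24 h they were Rpl22l1 (0.85), Rps27l (0.58) and Rpl14 and, downward, Rpl30 (−0.27), Rps20 (below the limit) and Rpl23 (−0.22). Between 4 h and 24 h 0 of 55 genes passed without a block in wild-type cells (5.46% of all genes, 1 unadjusted) and in knockout cells (0.69%, 0 unadjusted). With the slide as a block Rpl13a alone passed in wild-type cells (18.8% of all genes, and 17.9% with the culture as a block, where it passed too, though not as a random block) and 0 in knockout cells with the slide or the culture as a block (7.18% and 6.39%). The extremes were Rpl22 (0.61), Rpl13a and Rps27l (0.38) and, downward, Rplp0 (−0.34), Rps15a (−0.34) and Rps20 (below the limit at 24 h) in wild-type cells. In knockout cells they were Rpl22l1 (0.64), Rpl22 (0.38) and Rps27l (0.28) and, downward, Rplp0 (−0.46), Rpl35 (−0.20) and Rpl23 (−0.17).

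Between knockout and wild-type cells 0 of 55 ribosomal protein genes passed the threshold in any condition. Without a block 0.267% of all genes passed in untreated cells, 0.189% at 4 h, 0.278% at 24 h and 0.1% on culture means, and 3, 1, 0 and 0 of the 55 had an unadjusted p under 0.05. With the slide as a block the shares of all genes were 0.501%, 0.423%, 0.568% and 0.657%, and 0 of the 55 passed. The intervals of the difference lay within 0.5 log2 units of 0 for 38, 37, 41 and 43 of the 55 genes. In untreated cells 44 of 55 genes were higher in knockout cells, at a median of 0.09 (all genes −0.02). Within slides 1, 2 and 3 this median was 0.07, 0.13 and 0.06. At 24 h 27 were higher, at a median of −0.00. Under median scaling the untreated median was 0.09 where that of all genes was 0.07, so that 28 of 55 lay above it.

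Rpl30, a large subunit protein that in yeast binds its own transcript, had the highest difference in untreated cells. Its log2 intensity was 11.41, 11.06 and 11.18 in wild-type cultures 6, 8 and 9 and 11.97, 11.53 and 11.72 in knockout cultures 3, 4 and 6, with no overlap. The difference was 0.52 ± 0.14 and did not pass (limma adjusted p = 0.248, with the slide as a block 0.0918), and within slides 1, 2 and 3 it was 0.56, 0.47 and 0.54. At 24 h the knockout values of 11.47, 11.47 and 11.48 lay beside wild-type values of 11.53, 11.57 and 11.48. The second kept probe of Rpl30 gave a difference of 0.26 ± 0.17 at 24 h, beside −0.05 ± 0.14 for the chosen one. Rpl13a (0.47) and Rps13 (0.41) followed in untreated cells, and Rplp2 (−0.16), Rpl22 (−0.11) and Rps24 (−0.08) were lowest. At 4 h the extremes were Rpl13a (0.62), Rps13 (0.39) and Rps15 (0.33) and, downward, Rps24 (−0.20), Rps15a (−0.18) and Rps20 (below the limit in knockout cells). At 24 h they were Rpl22l1 (0.69), Rpl14 (0.26) and Rps26 (0.20) and, downward, Rpl22 (−0.28), Rpl23 (−0.21) and Rps6 (−0.14). On culture means they were Rpl22l1 (0.42), Rpl13a (0.38) and Rps15 (0.27) and, downward, Rpl22 (−0.15), Rps24 (−0.09) and Rpl23 (−0.06).

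The responses of knockout and wild-type cells to IgE and antigen were compared by the interaction term, and 0 of 55 genes passed at 4 h or 24 h, nor did any of the 8985 (0% at both times), with 0 and 2 of the 55 at an unadjusted p under 0.05. These intervals are wide, within 0.5 log2 units of 0 for 23 genes at 4 h and 22 at 24 h. For most of the 55 genes a difference beyond 0.5 was therefore not excluded. The extremes at 4 h were Rplp2 (0.27), Rps27l (0.25) and Rps9 (0.22) and, downward, Rpl30 (−0.37), Rps20 (below the limit in knockout cells) and Rps15a (−0.23). At 24 h they were Rpl22l1 (0.34), Rplp2 (0.32) and Rpl14 (0.25) and, downward, Rpl30 (−0.58), Rps13 (−0.49) and Rpl13a (−0.42).

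Slides, and with them pairs of cultures, differed in 12 of 55 genes (21.8%, limma F test of the slide terms) where 32.1% of all genes passed. Leaving out 1 culture left between 1 and 7 genes, with 1 gene without wild-type culture 6, where 14% of all genes passed. Rpl13a differed the most by this test, by −0.87 on slide 2 and −0.40 on slide 3 against slide 1 (adjusted p = 0.000721). It was followed by Rpl4, Rpl7a, Rps3a1, Rplp0 and Rpl14. Rps6 was lower by 0.36 on slide 2 and 0.33 on slide 3 (limma adjusted p = 0.0146). Of the 55 genes 10 were higher on slide 2 than on slide 1, at a median difference of −0.13 (all genes 0.03). Rplp0, Rpl13a, Rpl14 and Rpl28, which rose with the slide as a block, were among the 12.

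Probes not chosen for a gene often had other changes than the chosen ones. For 18 of the genes 24 further probes passed the detection filter, and at 24 h over both genotypes their median change was 0.20, against 0.08 for the chosen probes of the same genes. Without a block 3 of the 24 rose at 24 h, where 6.89% of 14073 probes passed, and 8 with the slide as a block (18%). At 4 h 1 rose (14.4%), and with the slide as a block 5 rose and 1 fell (27.1%). Illumina probes cover a short stretch of a transcript and ribosomal protein genes have many processed pseudogenes, and whether a probe also binds other transcripts was not tested.

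Rps24, a small subunit protein whose mRNA is spliced in several forms, showed this most. The chosen probe, had log2 intensities of 13.88 to 14.39 and changed by −0.10 ± 0.09 at 4 h and −0.17 ± 0.09 at 24 h. A second probe, annotated to another transcript record of the gene, had 8.65, 7.93 and 8.32 in untreated wild-type cultures 6, 8 and 9, 9.40, 8.69 and 8.79 at 4 h and 9.10, 8.71 and 8.88 at 24 h. In knockout cultures 3, 4 and 6 it had 8.66, 8.81 and 8.30 untreated, 9.64, 9.47 and 9.23 at 4 h and 9.13, 9.45 and 9.39 at 24 h. Both stimulated knockout groups lay above all untreated knockout values, and every culture was higher at both times than untreated. The change was 0.76 ± 0.15 at 4 h and 0.66 ± 0.15 at 24 h, both past the threshold without a block (limma adjusted p = 0.00636 and 0.0189). Another probe of Rps24 gave 0.23 ± 0.16 and 0.43 ± 0.16, neither past it.

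Rpl29 and Rpl31 gave the other rises at 24 h without a block. The second probe of Rpl29 rose by 0.53 ± 0.12 (limma adjusted p = 0.0203) beside 0.24 ± 0.13 for the chosen one. For Rpl31 1 further probe rose by 0.49 ± 0.13 (0.0294) and the other gave 0.46 ± 0.14 (0.0549), beside −0.02 ± 0.08 for the chosen probe. Rpl38, which in mouse embryos favours translation of Hox mRNAs, gave 0.55 ± 0.18 by its second probe (limma adjusted p = 0.0773) and −0.12 ± 0.09 by the chosen one. For Rpl23 3 further probes gave 0.53, −0.24 and −0.12, and the chosen one −0.10. The further probe of Rps9 fell by 0.29 at 4 h with the slide as a block (limma adjusted p = 0.0406), beside a change of −0.20 for the chosen probe.

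**Figure D4:**
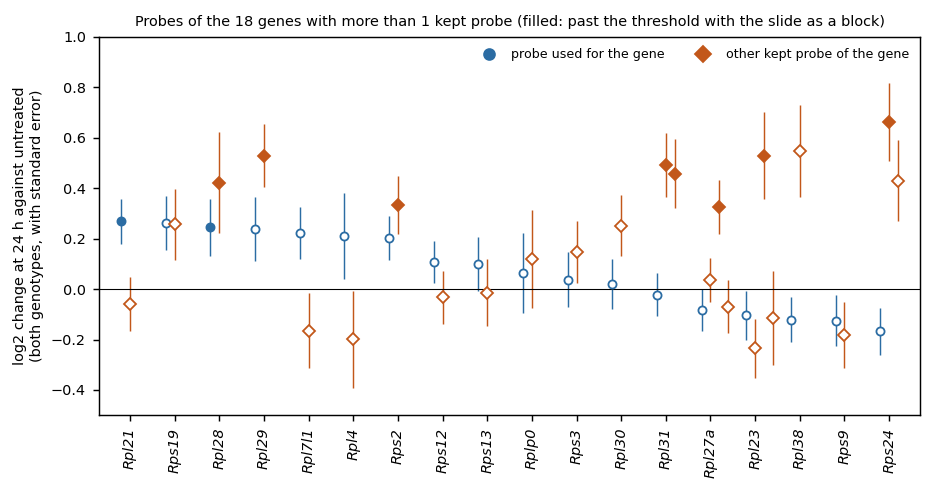
Log2 change at 24 h against untreated over both genotypes (y axis, with standard error) for the probes of the 18 genes with more than 1 kept probe, blue circles for the probe used and orange diamonds for the others, filled where past the threshold with the slide as a block. For Rps24, Rpl31, Rpl38 and Rpl23 at least 1 further probe lies above 0.4 while the probe used lies below 0.

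Brightness went with the number of calls among the members. With the slide as a block at 4 h, 0 of the 36 ribosomal protein genes with means above 13 passed, and 18 of the 90 other genes as bright did. At 24 h 2 of the 36 and 18 of the 90 passed. Without a block it was 0 of 36 at both times, and 10 and 5 of the 90. Of the 19 dimmer ribosomal protein genes 4 passed at 4 h and 3 at 24 h with the slide as a block.

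Many genes that build ribosomes rose at 4 h. Of 44 measured genes of ribosome production (nucleolar processing, assembly and RNA polymerase I) 21 rose and 0 fell over both genotypes without a block, where 7.43% of all genes rose, at a median of 0.45, against a median of 0.03 for the 55 ribosomal protein genes. Rrp9, a U3 snoRNP protein, rose by 1.05 ± 0.15 (limma adjusted p = 0.000606), Noc3l by 0.84 ± 0.14 (0.00241) and Nop2, an rRNA methyltransferase, by 0.83 ± 0.15 (0.00295). At 24 h 0 rose and 1 fell, Ubtf, the polymerase I factor (−0.68 ± 0.12, adjusted p = 0.00529), and the median was 0.02. From 4 h to 24 h in wild-type cells 15 of the 44 fell and 0 rose, where 5.46% of all genes passed. In knockout cells 0 of 44 passed, where 0.69% of all genes did. With the slide as a block 24 of the 44 fell in wild-type cells (18.8% of all genes) and 5 in knockout cells (7.18%), and 0 rose in either. The interaction passed for none of the 8985 genes.

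Of 72 measured mitochondrial ribosomal protein genes 13 rose at 4 h and 5 at 24 h without a block, at medians of 0.15 and 0.19, and 0 fell. Over all genes 7.43% rose at 4 h and 3.56% at 24 h. Mrps28 rose by 0.72 ± 0.13 at 4 h (limma adjusted p = 0.00391). With the slide as a block 16 of the 72 rose and 2 fell at each time. Over all genes 27.7% then passed at 4 h and 20.2% at 24 h, and 12.7% and 9.53% rose. Of 17 other translation genes with TOP mRNAs 1 rose at each time without a block, against 7.43% and 3.56% of all genes. It was Nap1l1 (0.42 ± 0.12 and 0.77 ± 0.12, limma adjusted p = 0.0295 and 0.0025), and the medians of the 17 were 0.09 and 0.03. Rpl36al, a ribosomal protein gene outside the naming rule, changed by −0.13 ± 0.09 and 0.05 ± 0.09 (0.323 and 0.748).

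**Figure D5:**
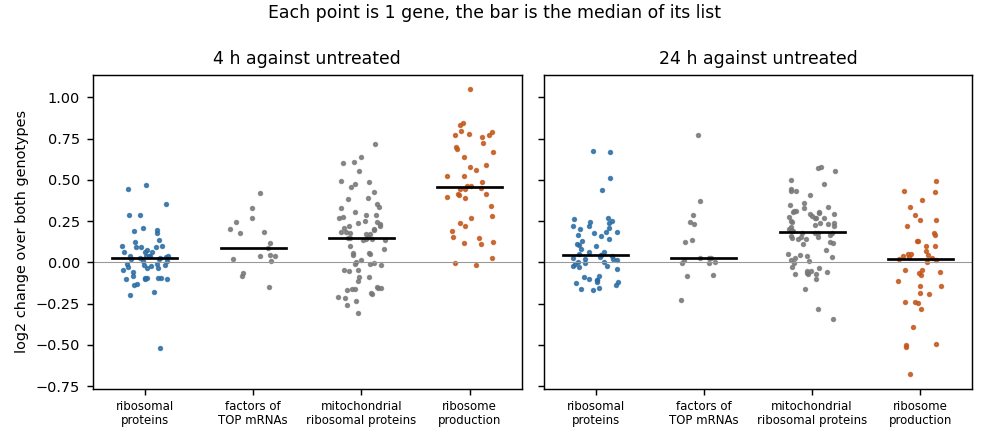
Log2 change over both genotypes (y axis) at 4 h (left) and 24 h (right) for each measured gene of 4 lists, with the list's median as a bar: 55 ribosomal proteins, 17 factors with TOP mRNAs, 72 mitochondrial ribosomal proteins and 44 genes of ribosome production. At 4 h the median of ribosome production is 0.45 and that of the ribosomal proteins 0.03.

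Among 11 measured transcription factors tied to ribosomal protein genes, 2 rose and 2 fell at 4 h, where 15.3% of all genes passed over both genotypes without a block. Gabpb1 and Gabpa, the subunits of an ETS factor, rose by 1.10 ± 0.21 and 0.41 ± 0.13 (limma adjusted p = 0.00429 and 0.0489). Mxd4 and Mxd1, which compete with Myc for Max, fell by 0.84 and 0.50 (0.0494 and 0.0259). Myc itself changed by 0.15 ± 0.17 (0.574). At 24 h, where 8.04% of all genes passed, Gabpb1 alone did (0.71 ± 0.21, adjusted p = 0.0478). Among 17 genes of the mTORC1 pathway 0 passed at 4 h, and at 24 h Tbc1d7, a subunit of the TSC complex, rose by 0.89 ± 0.14 (limma adjusted p = 0.0025), Sesn2 rose by 0.46 ± 0.13 (0.0412) and Rptor, the mTORC1 scaffold, fell by 1.55 (0.00532). Of 2 measured S6 kinases 0 passed. Among 11 genes of the 5S particle, Mdm2 and p53, Cdkn1a (1.13 ± 0.24) and Rpf2 (0.49 ± 0.13) rose and Sesn1 fell by 0.79 at 4 h (limma adjusted p = 0.00665, 0.0207 and 0.0111), and 0 passed at 24 h.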

How the data were processed

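Total RNA of cultured mast cells was measured on 18 Illumina arrays, 3 per group, grouped by the labels. Per the labels' protocols biotinylated cRNA was made with an Ambion kit. The deposited non-normalised table holds probe intensity on a linear scale. A second table of the authors gives log2 values. They lay within 0.000556 of the log2 of the first table after quantile normalisation here. The scanner software is not given in the sources used here.

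In limma 3.58.1 under R 4.3.3, intensities were corrected by normexp (offset 50), quantile normalised and log2 transformed. A probe counted as detected on an array where at most a share of 0.01 of 1501 receptor probes was as bright, and was kept when detected on 3 arrays. Of 45281 probes 16669 were kept, 14073 of them with 1 symbol, for 8985 genes. All arrays were fitted with 6 group means, eBayes and two-sided tests, Benjamini-Hochberg adjusted over all genes at 0.05. Genotype was also compared after averaging the 3 arrays of each culture. "Over both genotypes" is the mean of the changes in each. The fit was tested on simulated data.

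Numbers in the labels pair the arrays of a culture, whose deviations from group means correlated by 0.134 to 0.625 in all 18 pairs, so values with the culture, or the slide, as a block are given where they change a call. The highest correlation between arrays was 0.989, and no array was a copy. P-values without a block measure the spread between cultures. With the slide or culture as a fixed block they measure the spread left once its mean is taken out. Members and gene lists were chosen with earlier results of these data known. Named are members past the threshold, the 3 highest and 3 lowest changes where fewer than 5 passed, the stalk, Rps6, Rps19 and paralogue pairs. Further probes were described after their values were seen. Alternatives were the authors' values, cyclic loess or median scaling, leaving out the background correction or the filter on dim probes, using all kept probes, 3 kinds of block, the compared groups alone and each culture left out. Added after seeing the data were fits without 1 of 2 arrays and every kept probe with the slide as a block. Promoter letters come from RefSeq (GRCm38.p6), and no protein sequences were used.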

Additional observations from a re-analysis of the deposited data

Results flagged for a closer look

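In 4 cases every wild-type culture moved one way and every knockout culture the other. At 24 h Rpl30 was higher in wild-type cultures by 0.12 to 0.51 and lower in knockout cultures by 0.06 to 0.50 on the log2 scale, and the knockout minus wild-type response was −0.58 ± 0.20 (limma interaction, adjusted p = 0.9997). Rpl34 and Rps13 ran the same way at 24 h (−0.37 and −0.49, limma adjusted p = 0.9997 for both). Second kept probes of Rpl30 and Rps13 differed from the chosen ones. Their knockout minus wild-type differences at 24 h alone were 0.26 ± 0.17 and 0.33 ± 0.19, beside −0.05 ± 0.14 and −0.07 ± 0.15 for the chosen probes. These are not response differences, which are not given here for the second probes. Rplp2 ran the other way at 4 h, with wild-type changes of −0.22 to −0.10, knockout changes of 0.06 to 0.17 and a difference of 0.27 (limma adjusted p = 0.9999). Such opposite patterns were found in 1.82% of the 55 genes at 4 h and 5.45% at 24 h, and in 1.45% and 1.94% of all genes. The untreated arrays enter both these responses and the genotype difference in untreated cells, where Rpl30 and Rps13 were among the highest.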

How the results depend on the processing

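Without a block 0 of the 55 ribosomal protein genes passed the threshold in any of the 14 contrasts, and this also held under no background correction, the authors' values, fits to the compared groups alone (run for 11 of the contrasts, not for both genotypes or culture means) and every culture left out in turn (0 to 0). At 4 h over both genotypes the count became 1 with median scaling, 1 with every kept probe, 4 with the slide as a block, 4 with a replicate block (the culture), 3 with the culture as a random block, 2 with the array of wild-type culture 9 at 4 h left out and 10 with every kept probe and the slide as a block. At 24 h it became 5 with median scaling, 1 with cyclic loess (Rps24, lower), 1 without the filter on dim probes (Rpl21), 3 with every kept probe, 5 with the slide as a block, 4 with a replicate block, 4 with the culture as a random block and 13 with every kept probe and the slide as a block. In wild-type cells the slide as a block and the replicate block each gave 1 at 4 h, 1 at 24 h and 1 between them, and in knockout cells at 24 h the slide gave 1, while the random block gave 0 in each of these. The replicate block changed no other call. The 12 genes that differed between slides became 21 with median scaling, 23 with cyclic loess, 21 with every kept probe and 1 to 7 with a culture left out. Where a value changed sign, none passed a threshold. With a culture left out the knockout minus wild-type difference of Rpl22 ran from −0.354 (without knockout culture 6) to 0.0521 (without knockout culture 4) on culture means, with 0.000607 without wild-type culture 9, and from −0.410 to 0.157 in untreated cells. Without knockout culture 6 Rpl22l1 turned to −0.0311 for the 24 h response difference (highest 0.634) and to −0.0157 in knockout cells between 4 h and 24 h (highest 1.20). In wild-type cells at 24 h the all-gene median was 0.26 under median scaling and −0.02 in the main setting. Median scaling turned Rps3a1 to 0.0835 at 4 h over both genotypes and 0.0949 in knockout cells, Rpl36a to 0.0561 in knockout cells at 4 h, Rpl30 to 0.0512 in knockout cells at 24 h, Rps10 to 0.0394 in wild-type cells at 4 h and Rplp2 to 0.0328 in wild-type cells at 24 h. Of 1414 values of named genes under other settings 1363 kept direction and side of the threshold, 40 passed it newly and 11 turned. Over both genotypes the median change of the 55 genes was 0.03 at 4 h and 0.05 at 24 h in the main setting. Cyclic loess put it at −0.09 and −0.07, where all genes had −0.02 and −0.0008. Median scaling put it at 0.14 and 0.20, where all genes had 0.08 and 0.19. The sign of this median, and its side of the median of all genes, thus depended on the normalisation. The cause of these shifts was not tested.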
